A study of Mus musculus with 2 samples.

Results

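The family of miR-130 and miR-301 was examined in microvesicles (MVs) released by mouse mesenchymal stem cells (MSCs). The family was taken as every entry of the deposited values named miR-130a, miR-130b, miR-301a, miR-301b or miR-721, with either arm of the hairpin, which gave 9 of 831 entries. These were mmu-miR-130a-3p, mmu-miR-130a-5p, mmu-miR-130b-3p, mmu-miR-130b-5p, mmu-miR-301a-3p, mmu-miR-301a-5p, mmu-miR-301b-3p, mmu-miR-301b-5p and mmu-miR-721. The entries were selected by name, but the family was chosen with earlier results on these intensities known, so its values are given as a description.

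The MSCs were primary bone marrow cells of 4-week-old male C57BL/6 mice at the third passage. For EPO-MVs they were incubated for 48 h with 100 IU/ml erythropoietin (EPO), the hormone that drives red blood cell formation, and for MSC-MVs they were cultured for 48 h in the same medium without EPO. Both media held fetal bovine serum, which can itself carry vesicles and miRNAs, and any bovine share of the signal was not measured here. The MVs were collected from the supernatant by ultracentrifugation, and their RNA was hybridized to the miRCURY LNA Array, whose capture probes contain locked nucleic acids that bind short RNAs tightly. Each condition had 1 array. With single arrays the differences have no replicate error and no test could be run. EPO cannot be told apart from the culture, the MV preparation or the array itself as the source of a difference.

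A miRNA is cut from a hairpin, whose left (5p) and right (3p) arms can each give a mature strand. In this family the 3p arm is the usual guide strand, which is loaded into Argonaute and finds messenger RNAs through its seed, bases 2 to 8, whereas the 5p arm is mostly degraded. The family is known as a regulator of vascular and matrix biology. Its guides repress Pparg, the master factor of fat cell formation, and the family has been linked to extracellular matrix stiffening and fibrosis downstream of the mechanical sensors YAP and TAZ. miR-130a is also known for repressing antiangiogenic homeobox genes in endothelial cells, and miR-301a for its link to NF-κB signaling.

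Mature sequences of 8 of the 9 entries were found by name in RefSeq (mouse assembly GRCm38.p6), and none for miR-301b-3p. The strands with the family seed are shown first because this seed is what makes them a family, with bases 2 to 8 in capitals and each sequence written 5′ to 3′.
mmu-miR-130a-3p: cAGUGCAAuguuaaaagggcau
mmu-miR-130b-3p: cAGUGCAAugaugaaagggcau
mmu-miR-301a-3p: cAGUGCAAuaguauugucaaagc
mmu-miR-721: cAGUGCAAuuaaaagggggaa

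All 4 of these strands carried the seed AGUGCAA and shared their first 9 bases, beyond which they differed. The precursor Mir301b also holds the stretch AGUGCAA, but the seed of miR-301b-3p could not be read without its mature sequence. miR-130a-3p and miR-130b-3p were identical at 20 of 22 positions and differed by U11A and A13G, counted from the 5′ end with the base of miR-130a-3p first. miR-130a-3p and miR-301a-3p were identical at 12 of the 22 positions compared from the same end, and miR-721 matched miR-130a-3p at 15 of 21 and miR-301a-3p at 13 of 21. Whether the probes separate strands as alike as miR-130a-3p and miR-130b-3p was not tested.

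The 5p strands are shown because their ratios on the arrays lay on the other side of 1 from those of the 3p strands of the same hairpins. Their bases 2 to 8 are in capitals again.
mmu-miR-130a-5p: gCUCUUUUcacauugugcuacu
mmu-miR-130b-5p: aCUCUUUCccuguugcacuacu
mmu-miR-301a-5p: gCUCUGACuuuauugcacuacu
mmu-miR-301b-5p: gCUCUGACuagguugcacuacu

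None of the 5p strands held the family seed. miR-301a-5p and miR-301b-5p had the seed CUCUGAC in common and were identical at 19 of 22 positions, with U10A, U11G and A12G between them (base of miR-301a-5p first). The other 5p seeds were CUCUUUU for miR-130a-5p and CUCUUUC for miR-130b-5p. The stretch UUGCACU, the exact complement of the family seed, lay near the 3′ end of miR-130b-5p, miR-301a-5p and miR-301b-5p and was not present in miR-130a-5p. The precursors of miR-130a, which lacks this stretch, and of miR-301a, which holds it, are shown because these hairpins gave the entries past 1.5-fold described below, with both mature strands in capitals.
Mir130a: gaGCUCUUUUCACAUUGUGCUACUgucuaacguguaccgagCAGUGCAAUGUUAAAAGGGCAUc
Mir301: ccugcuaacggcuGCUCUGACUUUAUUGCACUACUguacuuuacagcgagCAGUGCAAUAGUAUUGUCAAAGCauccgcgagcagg

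In GRCm38.p6 the family lies at 4 places. Mir130a is on the minus strand of chromosome 2 near Ypel4, and Mir301, the gene of miR-301a, is on the plus strand of chromosome 11, overlapping Ska2. Mir130b and Mir301b are neighbours on the minus strand of chromosome 16, both overlapping 2610318N02Rik. Mir721 is on the minus strand of chromosome 5 and overlaps Cux1. No other miRNA gene lay within 10000 bp of any of the 5 genes, apart from Mir130b and Mir301b to each other. Coordinates are left out because the values come without a genome build.

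The deposited value of an entry is a normalized intensity on a linear scale, and the change is its ratio, EPO-MV over MSC-MV, with no pseudocount. Entries that differed by 1.5-fold or more, up or down, were counted as changed, following the fold filter of the methods. On either array all values were multiples of the smallest one, called a step here, so that an intensity of 1 holds 471 steps for EPO-MVs against 447 for MSC-MVs. Steps show how far a signal stood above the smallest value the array gave. Probes differ in affinity, so a brighter entry is not necessarily a more abundant miRNA, and brightness is used below only to group or match entries by signal.

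The family showed a split by arm. All 4 of the 3p arms (of miR-130a, miR-130b, miR-301a and miR-301b) had lower values in EPO-MVs than in MSC-MVs, and all 4 of the 5p arms had higher values. miR-721, which carries the seed of the 3p arms and is listed without an arm, was on the higher side. Most of these differences were small, and 2 of the 9 entries passed 1.5-fold, miR-301a-3p as lower and miR-130a-5p as higher. Of all 831 entries, 25.4% passed 1.5-fold in either direction, 17.8% as higher and 7.58% as lower (70.1% of those past it were higher, against 50.0% after quantile normalization and 48.9% after lowess). The family's share, 2 of 9, is close to that of the whole array, and its median log2 ratio of 0.05 equals that of all entries (0.05) with the deposited values, but was -0.18 against -0.04 among entries above the median intensity.

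**Figure D1:**
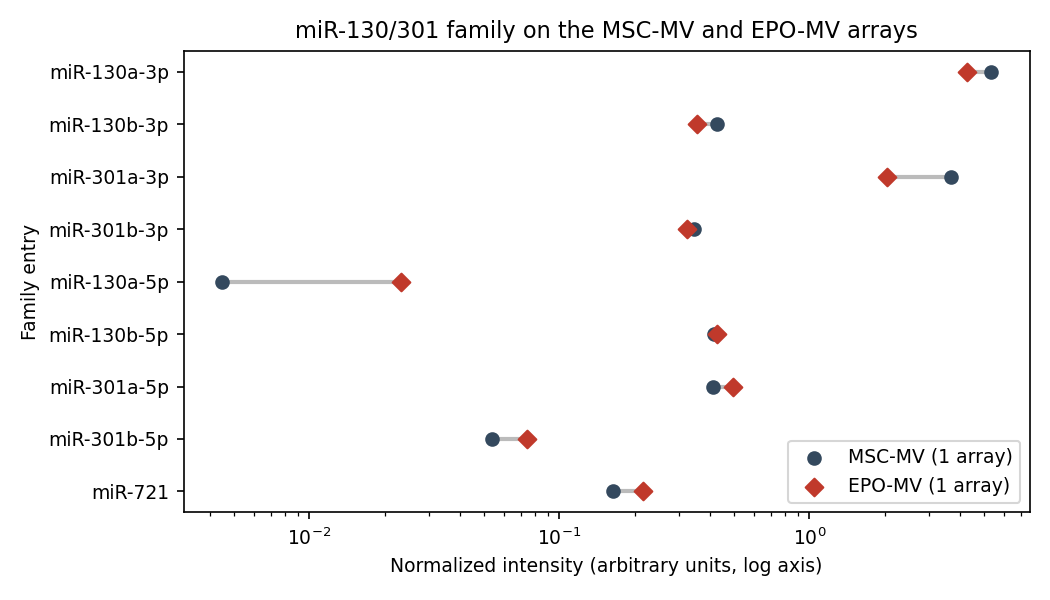
Normalized intensity (log axis, arbitrary units) of the 9 family entries on the MSC-MV array (circles) and the EPO-MV array (diamonds), 1 array each, so each grey line is the difference between 2 single values and has no error bar. The 4 entries of 3p arms at the top have the EPO-MV value on the left and the 5 entries below have it on the right, with the widest gap for miR-130a-5p (0.0234 against 0.00447). Rows are different probes, so only the 2 points within a row can be compared.

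Among the 3p arms, miR-301a-3p had the lowest ratio. Its normalized intensity was 3.70 in MSC-MVs (1652 steps) and 2.04 in EPO-MVs (962 steps). This is a ratio of 0.553, or 1.81-fold lower in EPO-MVs. With a signal of this size the rounding of the values to whole steps is small, but rounding is no measure of the variation between arrays or cultures, which is unknown here.

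The other 3p arms were lower by less than 1.5-fold. miR-130a-3p went from 5.34 in MSC-MVs to 4.27 in EPO-MVs (2387 and 2010 steps), a ratio of 0.799. miR-130b-3p went from 0.427 to 0.357 (191 and 168 steps), a ratio of 0.835. These are the strands that are alike at 20 of 22 positions, and both ratios lay below 1. For miR-301b-3p, the paralog of miR-301a-3p, the intensities were 0.345 (154 steps) and 0.323, a ratio of 0.937, a smaller difference than that of miR-301a-3p on the same arrays.

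The 5p arms had ratios above 1. miR-130b-5p had 0.414 in MSC-MVs and 0.429 in EPO-MVs (185 and 202 steps), a ratio of 1.04. miR-301a-5p had 0.412 and 0.497 (184 and 234 steps), a ratio of 1.21. miR-301b-5p was dimmer, with 0.0537 and 0.0743 (24 and 35 steps) and a ratio of 1.38. None of these 3 reached 1.5-fold, and at 24 and 35 steps a move of 1 step on each array spans ratios from 1.29 to 1.49 for miR-301b-5p.

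The highest ratio of the family belonged to its dimmest entry, miR-130a-5p, which had 0.00447 in MSC-MVs and 0.0234 in EPO-MVs. The ratio of 5.22 compares 11 steps in EPO-MVs with 2 steps. Moving each value by 1 step spans ratios from 3.16 to 11.4, so the size of this ratio is poorly fixed by the values themselves. With 0.163 in MSC-MVs and 0.217 in EPO-MVs (73 and 102 steps), miR-721, whose mature strand carries the family seed, had a ratio of 1.33. Of the 4 strands printed above with the seed AGUGCAA, it alone had a ratio above 1.

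The median ratio on these arrays was lower in brighter entries, so each member was read beside entries of like intensity. The 831 entries were ranked by their mean log2 intensity and cut into 4 groups of 207 or 208. In the brightest group, which held miR-130a-3p and miR-301a-3p, 131 of 208 entries (63.0%) were lower in EPO-MVs and the median ratio was 0.942. At least 1.5-fold lower were 7.69% of this group. The ratio of miR-301a-3p was the next to lowest of the 208, behind miR-365-3p at 0.539, and lay below the 5th percentile of the group (0.636). miR-130a-3p ranked 54th from the lowest and was inside the range between the 5th and the 95th percentile (0.636 to 1.29).

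The other members stayed within the range of their group. The group next in brightness, with a median ratio of 1.01 and a range from the 5th to the 95th percentile of 0.683 to 1.51, held miR-130b-3p, miR-130b-5p, miR-301a-5p and miR-301b-3p. In that group miR-130b-3p ranked 41st from the lowest and miR-301a-5p 48th from the highest of 208. miR-301b-5p and miR-721 lay in the group below, where the median ratio was 1.12 and the range was 0.717 to 1.83. In the dimmest group 46.4% of the 207 entries passed 1.5-fold as higher. The 5.22 of miR-130a-5p was inside the range of that group, which reached 6.64, and 16 of its entries had a higher ratio.

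**Figure D2:**
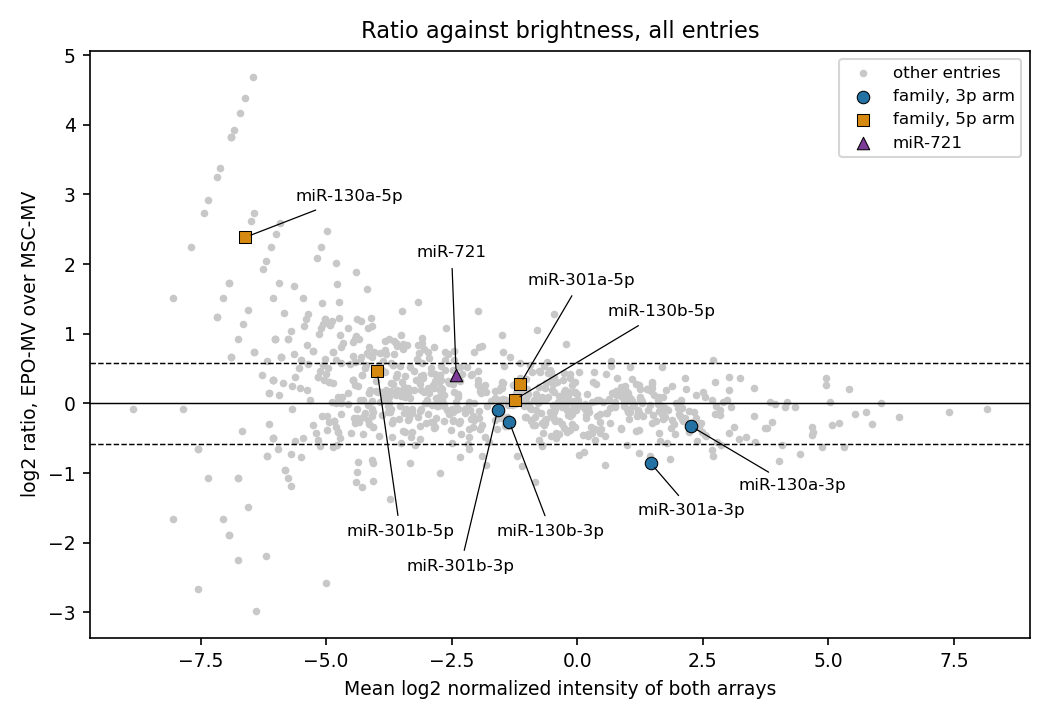
Log2 ratio of EPO-MV over MSC-MV against the mean log2 normalized intensity of both arrays for all 831 entries (grey), with the family as 3p arms (circles), 5p arms (squares) and miR-721 (triangle). Dashed lines mark 1.5-fold in either direction. miR-301a-3p (ratio 0.553) lies at the lower edge of the bright entries, and miR-130a-5p (ratio 5.22) lies in the wide spread of dim ones.

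Both arms of a hairpin come from the same precursor, so the ratios of the arms were compared within each of the 4 hairpins that had both arms listed. In each hairpin the 3p ratio was below 1 and the 5p ratio above 1. The difference between the arms (log2 ratio of 5p minus that of 3p) was 2.71 for miR-130a, 1.13 for miR-301a, 0.56 for miR-301b and 0.31 for miR-130b. Separate entries for both arms were listed for 110 hairpins with the 3p arm brighter and 113 with the 5p arm brighter. Among all these hairpins the 5p ratio exceeded the 3p ratio in 104 (46.6%), and a 3p ratio below 1 together with a 5p ratio above 1 was seen in 46 (20.6%). With at least 30 steps on both arrays for both arms, this was seen in 14 of 104 hairpins (13.5%), and of the family only miR-130b and miR-301a were left, both with this pattern. Of all entries, 43.9% had a ratio below 1 and 56.1% a ratio above 1. No p-value was computed, because 4 hairpins of 1 pair of arrays are not replicates and the family was chosen with its results known.

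Brightness moved with the arm in this comparison. In 3 of the 4 family hairpins the 3p arm was the brighter one, and over all hairpins with both arms listed the dimmer arm had the higher ratio in 63.2%. Where the 3p arm was the brighter, the 5p ratio exceeded the 3p ratio in 66 of 110 hairpins. In miR-130b the signals were 191 and 168 steps for the 3p arm and 185 and 202 for the 5p arm in MSC-MVs and EPO-MVs. With the trend of the ratio with intensity removed by lowess, all 4 hairpins again had a 3p ratio below 1 and a 5p ratio above 1, as did 17.5% of all hairpins with both arms listed. Quantile normalization left this in 3 of 4, with miR-130b-5p at 0.963, and in 16.1% of all. The part of brightness in the split was not tested.

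**Figure D3:**
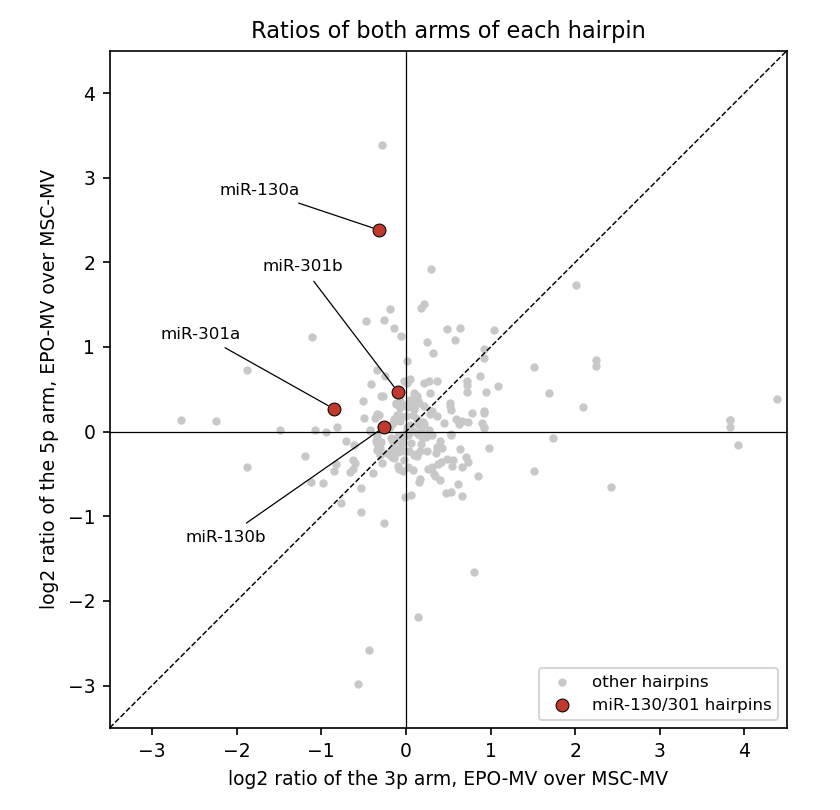
Log2 ratio (EPO-MV over MSC-MV) of the 5p arm against that of the 3p arm for the hairpins with both arms listed, with the 4 family hairpins in red. All 4 lie above the dashed line of equal ratios and in the upper left quadrant, which holds 20.6% of the hairpins.

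miR-301a-3p stayed past 1.5-fold under all 5 other scalings of the arrays. With the arrays re-centred on the median (of all entries, or of brighter ones), scaled to the 75th percentile, quantile-normalized or corrected by lowess, its ratio ranged from 0.534 to 0.587. The ratio of miR-130a-3p ranged from 0.772 to 0.896 and that of miR-130b-3p from 0.786 to 0.866 under the same settings. miR-301b-3p stayed below 1 (0.905 to 0.972). miR-130b-5p was the only member on both sides of 1 (0.963 to 1.08). For miR-130a-5p the ratio was 2.77 with quantile normalization and 2.96 with lowess, and it fell to 1.31, under the threshold, with a pseudocount of 0.0573, which exceeds its values on both arrays.

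**Figure D4:**
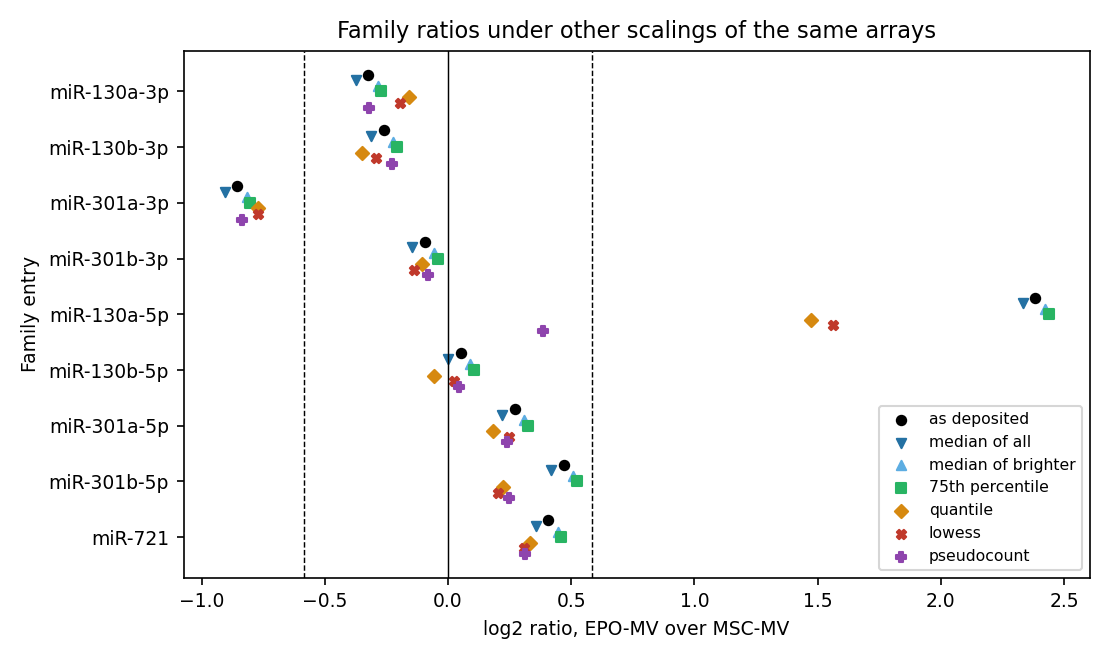
Log2 ratio (EPO-MV over MSC-MV) of each family entry as deposited and under 6 other treatments of the same pair of arrays, with dashed lines at 1.5-fold. The points of miR-301a-3p stay left of the lower line (0.534 to 0.587 as ratios), and those of miR-130a-5p spread from 1.31 with the pseudocount to 5.42 with scaling to the 75th percentile.

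The seed could be read for the 680 of 831 entries (81.8%) that matched a RefSeq mature sequence. Among these, without miR-301b-3p, no other entry carried the seed AGUGCAA, and 6 entries had a seed that shares 6 consecutive bases with it. They are shown because overlapping seeds can pair with overlapping target sites, with bases 2 to 8 in capitals.
mmu-miR-19a-3p: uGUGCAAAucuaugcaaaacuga
mmu-miR-19b-3p: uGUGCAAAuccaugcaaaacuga
mmu-miR-148a-3p: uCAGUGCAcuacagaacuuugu
mmu-miR-148b-3p: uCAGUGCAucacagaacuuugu
mmu-miR-152-3p: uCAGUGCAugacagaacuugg
mmu-miR-291b-3p: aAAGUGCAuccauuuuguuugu

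The miR-19 strands, known from the growth-promoting miR-17~92 cluster, share GUGCAA with the family, and the strands of miR-148 and miR-152, known for repressing DNA methyltransferases, share AGUGCA. Of these 6 entries, 1 passed 1.5-fold, where 25.4% of all entries did. The ratios were 0.789 for miR-19a-3p (2308 steps in MSC-MVs and 1918 in EPO-MVs), 0.752 for miR-19b-3p (2899 and 2296 steps), 0.881 for miR-148a-3p (432 and 401 steps), 0.894 for miR-148b-3p (532 and 501 steps) and 0.774 for miR-152-3p (934 and 762 steps). All 5 were below 1 and within 1.5-fold, against 0.799 for miR-130a-3p, 0.835 for miR-130b-3p and 0.553 for miR-301a-3p. Of all entries 43.9% were below 1, and of the brightest group, which held 4 of these 5, 63.0% were. The entry past 1.5-fold was miR-291b-3p, a miRNA of early embryonic cells, with 2 steps in MSC-MVs and 7 in EPO-MVs (ratio 3.32). It lay in the dimmest group, where 46.4% of entries passed as higher.

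Other miRNAs tied to the roles of the family were counted in the same way. miR-27a-3p and miR-27b-3p, which also repress Pparg, had ratios of 0.789 and 0.785, and neither passed 1.5-fold. Of 15 miRNAs listed for their link to fibrosis, 13 had a deposited entry. Of these, 3 passed 1.5-fold as higher, 2 as lower and 8 did not pass, where 17.8% of all entries passed as higher and 7.58% as lower. Their median ratio was 0.753, against 1.04 over all entries and 0.942 over the brightest group, which held 9 of the 13. The 3 that passed as higher were miR-192-5p (6.64), miR-200b-3p (1.50) and miR-200c-3p (2.85). In that order they had 1, 43 and 6 steps in MSC-MVs and 7, 68 and 18 in EPO-MVs. miR-200b-3p lay at the threshold. miR-192-5p and miR-200c-3p lay in the dimmest group, where 46.4% of entries passed as higher. miR-132-3p, in the same group, passed as lower at 4 and 2 steps (0.475). These 4 are named after their values were seen. The brightest of the 13 were miR-21a-5p, known as profibrotic, with a ratio of 0.873, miR-29b-3p, which represses collagens, with 0.753, the entry shared by miR-199a-3p and miR-199b-3p with 0.733, and miR-29a-3p with 0.563. miR-29a-3p passed 1.5-fold as lower, like miR-301a-3p, and with 9625 and 5708 steps it lay in the same brightest group. The fibrosis list holds profibrotic and collagen-repressing strands, so its median gives no direction for fibrosis. It also overlaps the cell type markers given further on. miR-21a-5p, miR-145a-5p, miR-199a-3p, miR-199a-5p and miR-214-3p are counted there as stromal, and miR-200b-3p and miR-200c-3p as epithelial.

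For each member the 2 entries nearest in log2 intensity over both arrays were looked up, as a description over 2 arrays. Entries matched on both intensities have ratios close to that of the member by construction, so the ratios given here are no comparison. miR-301a-3p lay nearest to miR-3962 (ratio 0.593) and miR-30b-5p (0.608), and miR-130a-3p to miR-210-3p (0.813), a miRNA induced by hypoxia, and let-7b-5p (0.756). The distance to the nearest entry was 0.07 for miR-301a-3p and 0.04 for miR-130a-3p on the log2 scale. miR-130a-5p was nearest to miR-3088-3p and miR-3971, both also at 2 steps in MSC-MVs. The other nearest entries were miR-421-3p and miR-194-5p for miR-130b-3p, miR-669l-5p and the entry shared by miR-669a-5p and miR-669p-5p for miR-130b-5p, miR-1949 and miR-5116 for miR-301a-5p, miR-2861 and miR-532-5p for miR-301b-3p, the entry shared by miR-3107-5p and miR-486-5p and miR-3066-3p for miR-301b-5p, and miR-124-3p and miR-705 for miR-721.

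The labelled cell type was checked against marker miRNAs. All 8 stromal markers, among them miR-143-3p, miR-145a-5p and miR-199a-5p, were listed, the dimmest at 108 steps in EPO-MVs. The brightest was miR-21a-5p, at 37150 steps in EPO-MVs and 40369 in MSC-MVs (intensities of 78.9 and 90.3). All 8 had ratios below 1 (0.648 to 0.873), and 1 passed 1.5-fold. The brightest group, which held 7 of the 8, had 63.0% of its entries below 1 and 7.69% past 1.5-fold as lower. Their intensities summed to 246.2 in MSC-MVs against 191.7 in EPO-MVs. The sum of all 831 entries was lower in EPO-MVs too, with 2147 on the MSC-MV array against 1957 on the EPO-MV array. Signals of blood cell miRNAs were also present. The 4 listed leukocyte markers, miR-142-3p, miR-142-5p, miR-150-5p and miR-223-3p, summed to 75.5 in MSC-MVs against 63.4 in EPO-MVs. Their ratios ran from 0.659 for miR-223-3p, which alone passed 1.5-fold, to 1.36 for miR-150-5p. Of the red blood cell markers, miR-451a had 1915 and 1821 steps (ratio 0.902), and miR-144-3p, with 87 and 160 steps, passed as higher (ratio 1.75). All 3 epithelial entries passed 1.5-fold as higher, with at most 68 steps and with 2 of them in the dimmest group, where 46.4% of entries did so. The entries of endothelium, muscle, neurons and liver gave 520 steps or fewer. Of these, miR-126a-3p, the only endothelial entry, passed as lower (116 and 72 steps, ratio 0.589). In its brightness group 9 of 208 entries passed as lower. The neuronal miR-9-5p passed as higher (15 and 30 steps, log2 ratio 0.92) and lay in the dimmest group, where 46.4% did so. The other 4 did not pass. Of all 831 entries, 7.58% passed as lower and 17.8% as higher. The part of stromal, blood cell or endothelial RNA in the family's ratios was not tested. The number of arrays limits the precision of every ratio.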

How the data were processed

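Per the methods, the authors read the LNA arrays on a GenePix scanner and averaged replicate spots. They divided by a median factor from the miRNAs that reached an intensity of 30 on every array. The deposited series holds 1 EPO-MV and 1 MSC-MV sample. The deposited intensity is linear and above 0 for all 831 entries. The channel read, any background correction and the genome build are not given in the sources used here. Such scaling makes the ratio relative to the brighter miRNAs.

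Ratios, steps (multiples of the smallest value, all whole within 0.001) and brightness groups were computed with Python 3.11.15, pandas 2.3.3, numpy 2.4.6 and statsmodels 0.14.6 (lowess span 0.4, 3 iterations), and drawn with matplotlib 3.10.9. Alternatives were fold thresholds of 2 and 1.2, filters at 30 and 60 steps on both arrays or at the median intensity, 5 other scalings, and addition of the 25th percentile of the values to both arrays (pseudocount). The counting was tested on simulated data.

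Named miRNAs are all family entries, arm partners, entries with the family seed or a run of 6 of its bases, the 2 nearest entries of each member, and listed fibrosis-linked, Pparg-repressing and cell type miRNAs. miR-365-3p was named after its value was seen. The family and the lists were chosen with earlier results of these data known. RefSeq mature sequences were found for 680 entries (81.8%).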

Additional observations from a re-analysis of the deposited data

How the results depend on the processing

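The fold threshold and the treatment of dim entries changed the number of family members past it, which was 2 of 9 with the deposited values. At a threshold of 2 it was 1, since miR-301a-3p (0.553) no longer passed, and 88 of all 831 entries did. At a threshold of 1.2 it was 6, with miR-130a-3p (0.799), miR-301a-5p (1.21), miR-301b-5p (1.38) and miR-721 (1.33) added, and 460 of all entries passed. With at least 30 or 60 steps on both arrays, or above the median intensity, 1 member passed of 7, 7 and 6, because miR-130a-5p drops out, and 62, 40 and 38 entries passed in all (10.8%, 8.64% and 9.16% of those kept). With the pseudocount 1 member passed, since miR-130a-5p fell to 1.31, and 54 entries passed in all. Another scaling changed no family call. It moved the share of higher among the changed entries from 70.1% to 50.0% with quantile normalization and 48.9% with lowess. The family median (log2) ranged from -0.18 above the median intensity, against -0.04 for all entries kept, to 0.10 with scaling to the 75th percentile, against 0.10. With at least 30 steps it was -0.09, against 0.0012. Background was not measured, so no member is called above it. No paired analysis was possible because there was a single array of each kind.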
